A study of Arabidopsis thaliana with 6 samples.

Results

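The transcripts described here are those most strongly detected in phloem exudate of Arabidopsis thaliana. They are the probe sets whose signal lay above the 95th percentile of the array on each of the 3 exudate arrays, and 827 of 22746 non-control probe sets (3.64%) met that rule. They were chosen by their exudate signals, so their brightness is described and not tested. The study hybridised poly-A RNA to 6 ATH1 arrays from Affymetrix, 3 with phloem exudate and 3 with excised phloem. Exudate is the fluid that leaves cut sieve tubes, collected into EDTA, which binds calcium and keeps the tubes open. The tissue was excised by laser microdissection and pressure catapulting (LMPC). All plants grew with 8 h of light at 22 °C and 16 h of darkness at 16 °C until they flowered, and the labels give no ecotype, genotype or treatment. Amplification was linear, by repeated in vitro transcription, for exudate, whereas the kit used for LMPC phloem included PCR, so kit and sample type cannot be told apart. The labels do not say how many plants went into a sample or whether the samples came from separate plants.

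Phloem carries sugars, amino acids, hormones, proteins and RNA from source leaves to growing organs through sieve elements. Mature sieve elements lose their nucleus and ribosomes, and adjoining companion cells supply them with proteins and RNA through plasmodesmata. Phloem sap is known for carrying mRNAs, some of which move across graft junctions, beside small proteins of redox control and defence. A level in exudate does not tell whether more cells gave a transcript or each cell gave more of it.

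A rank here is the place of a probe set by its MAS5 signal within 1 array, with rank 1 the brightest. It depends on how well the probes bind as well as on the amount of RNA, so it orders signals and not numbers of molecules. The 95th percentile was a signal of 93.65, 83.8 and 158.65 on exudate arrays 1, 2 and 3. The probe table gave 1 gene to 354 members, each a different gene, several genes to 49 and none to 424, and only members with 1 gene are named. Among the 20 members with the best places, 4 had 1 gene and 16 were unnamed, so the genes below do not include most of the brightest probe sets. Of the probe sets with 1 gene, 2.62% were members. Of the 1707 with a name beyond a locus code, the ones that lists by keyword can reach, 66 were members (3.87%).

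The members made up 3.64% of the probe sets and took 48.2% ± 3.51 of the summed signal of an array (mean ± SD, n = 3 arrays here and below). The share was 48.2% on array 1, 44.7% on array 2 and 51.7% on array 3. The brightest 10 probe sets of each array were all members and took between 3.79% and 4.39% of the signal. As many as 1500 probe sets passed the threshold on at least 1 exudate array, of which 827 passed on all 3, 258 on 2 and 415 on 1. Any pair of arrays shared between 902 and 926 of its 1136 to 1138 brightest probe sets. Across all 22746 probe sets, which are not independent replicates, Spearman's rho was 0.683, 0.719 and 0.721 for arrays 1 and 2, 1 and 3, and 2 and 3. Across the 827 members, chosen for high signal on these same arrays, it was 0.850, 0.857 and 0.850, and the choice itself bears on that agreement. Array 3 was brighter throughout and gave the highest deposited signal for 782 members.

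**Figure D1:**
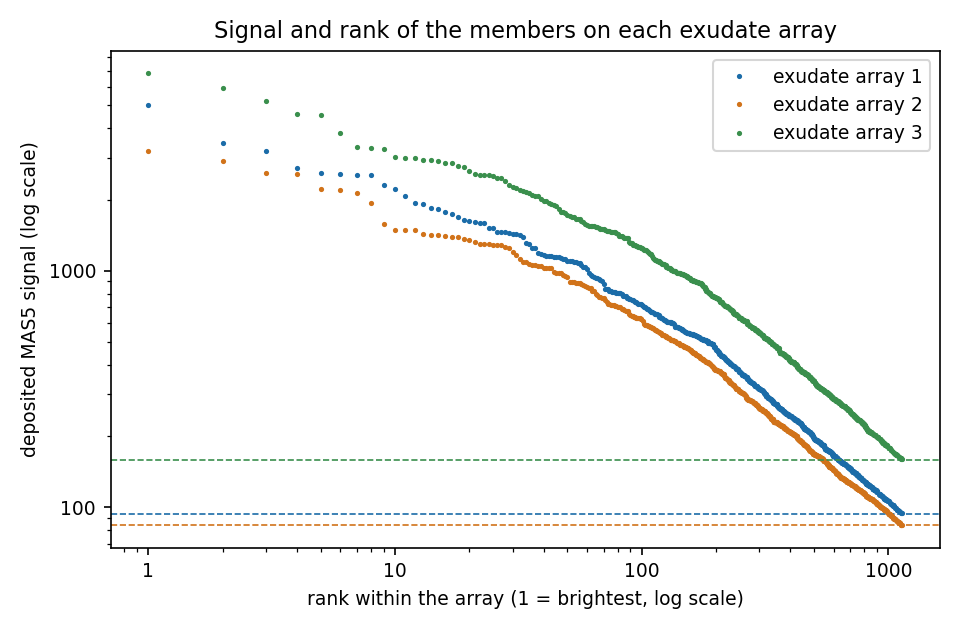
Deposited MAS5 signal of the 827 members against their rank within the array, both on log scales, for the 3 exudate arrays, with dashed lines at each array's 95th percentile. Array 3 lies above arrays 1 and 2 at every rank, and its threshold of 158.65 lies above the 93.65 of array 1 and the 83.8 of array 2.

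The label was checked against marker genes of the cell types that a cut leaf could hold. Of 14 companion cell and sieve element markers, the probe table paired 3 with an unshared probe set, and none of them was a member. CLE44 (AT4G13195), which encodes a phloem peptide signal to the cambium, had a signal of 86.8, 50.4 and 100.5 on exudate arrays 1, 2 and 3. CLE41 (AT3G24770), which encodes the same peptide, had 16.6, 39.1 and 63.4, and SWEET11 (AT3G48740), a sucrose exporter of phloem loading, had 8.9, 25.8 and 15.5. On LMPC arrays 1, 2 and 3 CLE44 had 46.8, 24.8 and 22.3, CLE41 had 321.5, 148.7 and 155.7, and SWEET11 had 75.4, 36.9 and 61.1. The mean within-array percentile of CLE44 was 92.4 in exudate and 71.9 in LMPC phloem. For CLE41 it was 80.9 and 97.1, and for SWEET11 63.1 and 86.8, so the genes went different ways. Their summed signal, 112.3 to 179.4 on exudate arrays and 210 to 444 on LMPC arrays, does not show this. The classical markers SUC2, APL, AHA3, SEOR1, SEOR2, PP2-A1, FT and NAKR1 had no probe set assigned to them alone and were not analysed here. The label therefore could be checked only on genes that do not define the companion cell.

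Of 28 mesophyll and photosynthesis markers, 3 were measured and 2 were members. The summed signal of these 3 was 924 to 1805 on exudate arrays and 183 to 745 on LMPC arrays, which share no common scale. By mean within-array percentile LHCB4.1 stood at 99.2 in exudate and 97.2 in LMPC phloem. LHCB4.2 stood at 99.1 and 89.6, and RCA, not a member, at 95.5 and 84.4. The 1 measured xylem marker of 8, GUT2, a xylan synthesis gene, had a signal of 33.1, 16.0 and 33.5 in exudate and 64.9 to 80.6 on LMPC arrays. The 1 measured epidermis and guard cell marker of 8, FMA, a guard cell transcription factor gene, had 0.9, 11.6 and 11.5 in exudate and 10.8 to 28.9 on LMPC arrays. The part of other cell types in the results was not tested.

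The highest places among members with 1 gene were held by a peroxidase, ribosomal proteins, a dehydrin and genes without a name. PRXR1 (AT4G21960), a class III peroxidase gene, had a signal of 2531.8, 2600.2 and 3346.1 on arrays 1, 2 and 3. It ranked 8, 3 and 7 of 22746 and was among the steadiest members. AT2G25510, for which the tables give no name, had 2707.3, 2903.1 and 5926.2 and ranked 4, 2 and 2. UBC28 (AT1G64230), a ubiquitin-conjugating enzyme gene, had 1252.1, 944.3 and 2078.3 and ranked 36, 50 and 37. All 25 genes with the best places lay at rank 114 or better on every exudate array. Of these 25, 8 were ribosomal protein genes, and 9 had a locus code as their only name, namely AT2G25510, AT1G78040, AT2G45180, AT1G09310, AT3G57450, AT5G22580, AT5G54940, AT5G38980 and AT1G51200. Of the 24 pairs of neighbours in this order, 23 had ranks whose ranges over the 3 arrays overlapped. The exception was AT1G54410, at ranks 14, 31 and 27, and AT1G78040, at ranks 39, 39 and 38. Overlap of ranges does not compare genes array by array, so it leaves the order open. On each array AT2G25510 was ahead of PRXR1, and PRXR1 ahead of AT3G60245. AT3G60245 and AT1G52300 changed places on array 2.

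**Figure D2:**
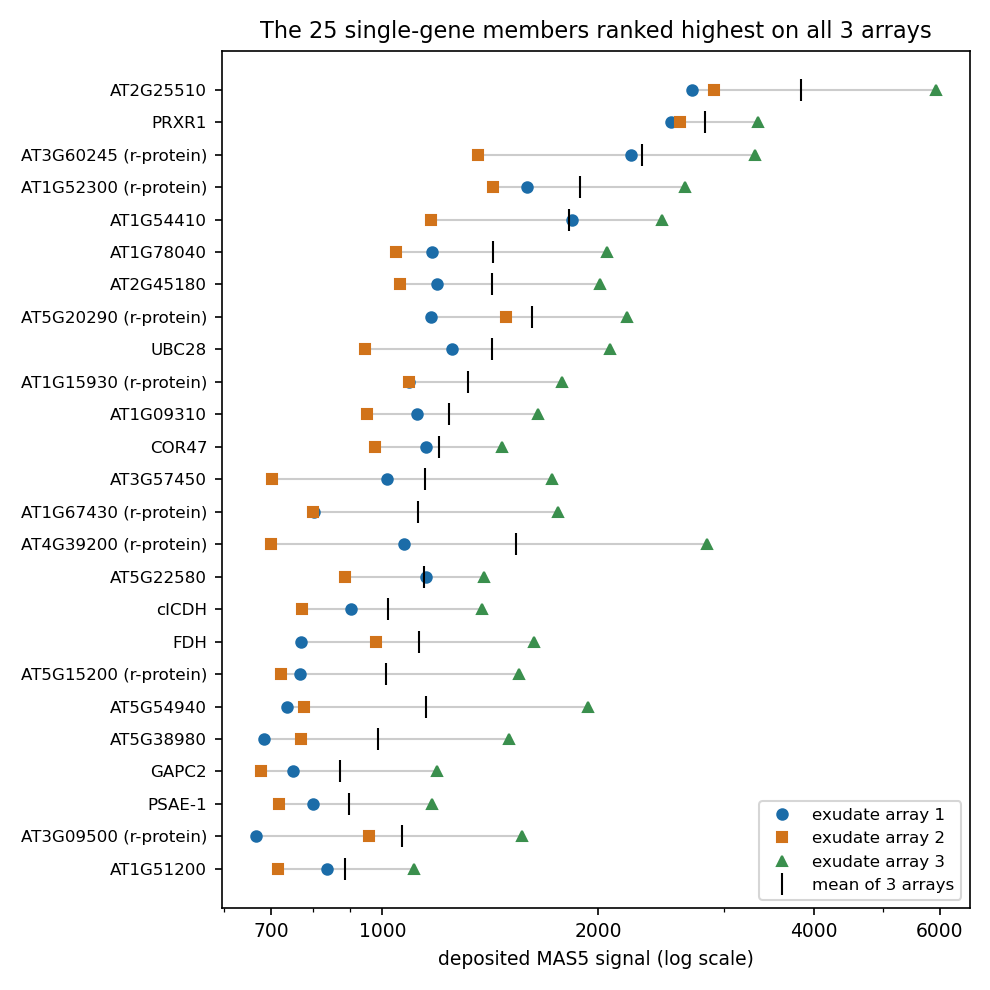
Deposited MAS5 signal, on a log scale, of the 25 members with 1 gene whose largest rank over the 3 exudate arrays was smallest, ordered from top to bottom by that rank. Symbols are the 3 arrays, black ticks the mean, and r-protein marks cytosolic ribosomal protein genes. Array 3 gave the highest signal for each of the 25 genes.

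Cytosolic ribosomal protein genes formed the largest group that could be named. The cytosolic ribosome of plants has a small and a large subunit, each protein being encoded by a small gene family. The gene table lists nearly all of these genes by locus code alone. They were grouped by a list of 230 locus codes written from general knowledge of the Arabidopsis families after the values had been seen. Of 131 that had a probe set of their own, 69 were members (52.7%, against 2.62% of all probe sets with 1 gene). They made up 19.5% of the 354 named members, 35 of the 100 with the best places and 19 of the first 50. All 131 together took 4.96%, 4.71% and 5.79% of the summed signal on arrays 1, 2 and 3.

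The large subunit had 46 members of 83 measured genes and the small subunit 23 of 48. AT3G60245, of the L37a family, had a signal of 2225.4, 1361.2 and 3317.4 and ranked 10, 19 and 8. AT1G52300, of the L37 family, had 1594.0, 1426.5 and 2647.9 and ranked 22, 13 and 20. Both belong to the large subunit and lay among the brightest 22 probe sets of every exudate array. In the small subunit, AT5G20290 of the S8 family had 1168.5, 1490.3 and 2199.0, and AT1G15930 of the S12 family had 1089.2, 1087.9 and 1779.4. AT4G39200 of the S25 family had 1073.4, 699.4 and 2841.5. Its signal on array 3 stood well above the other two, and its rank moved from 82 on array 2 to 17 on array 3.

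The acidic stalk of the large subunit, which recruits translation factors, was present through its P0, P1, P2 and P3 families. AT3G09200, a P0 gene, had a signal of 604.3, 595.8 and 1244.5. AT2G27720, a P2 gene, had 801.6, 485.3 and 1376.5. AT1G01100, a P1 gene, had 409.4, 210.1 and 952.3, which made it 1 of the 5 named members with the widest spread. The P3 genes AT5G57290 and AT4G25890 were members too, with means of 209 ± 85.7 and 175 ± 117.

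Near-identical paralogs of a ribosomal protein can bind the same probes, and probes differ in how well they bind, so the split of signal within a family is uncertain. Of 59 families with a probe set of their own, 46 had at least 1 member. Among 45 families measured through several genes, 9 had all of them among the members, 32 had some and 4 had none. Families with all genes among the members included S7, S3a, L15 and L4. In the S8 family AT5G20290 was a member and AT5G59240, with a signal of 0.9, 9.2 and 26.9, was not. In the P0 family AT2G40010 had 0.9, 1.3 and 0.4. In the S15 family none of 5 genes was a member, and AT5G09510, with the best places of them, had 57.4, 54.9 and 93.4.

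Nuclear genes of photosynthesis were the next group, with 9 members. They encode chloroplast proteins of the photosystems, the ATP synthase and the thylakoid membrane. PSAE-1 (AT4G28750), a subunit of photosystem I on the stromal side, had a signal of 799.1, 717.9 and 1173.8 and ranked 83, 75 and 109. LHCB4.1 (AT5G01530) and LHCB4.2 (AT3G08940), minor antenna proteins of photosystem II, had means of 611 ± 253 and 518 ± 218. PSBW (AT2G30570), a small photosystem II subunit, had 395.3, 377.9 and 680.6. The other members were PSAN of photosystem I, PSBY and PSB27 of photosystem II, ATPC1 of the chloroplast ATP synthase and AT4G01150 (CURT1A), a protein that curves thylakoid membranes. Their means lay between 135 ± 43.0 for PSBY and 197 ± 85.9 for PSAN, and ATPC1 had the even values of 174.1, 167.8 and 187.2. By a keyword list of photosynthesis names, 4 of 6 measured genes were members (66.7%, against 3.87%). RCA (AT2G39730), Rubisco activase, lay just outside the threshold on array 1, with 92.9, 98.9 and 187.8.

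Chloroplast genome transcripts were measured by 69 probe sets, of which 4 were members (5.80%, against 2.62%). psbM, a small photosystem II subunit gene, had a signal of 390.5, 347.2 and 1221.2, and array 3 stood apart from arrays 1 and 2. psbA, the D1 reaction centre protein of photosystem II, had 283.9, 229.6 and 573.1. rbcL, the large subunit of Rubisco, had 110.3, 131.5 and 286.2, and rpoA, a subunit of the plastid RNA polymerase, had 101.8, 118.7 and 197.2. The summed signal of the 69 probe sets was 2218.2, 1746.7 and 5020.9 on exudate arrays 1, 2 and 3. On the LMPC arrays it lay between 17057 and 40499, and 17 of the 69 were above the 95th percentile there on all 3 arrays (24.6%). Of 18 mitochondrial genome probe sets, 1 was a member (5.56%, against 2.62%). It measured cox1, a subunit of cytochrome c oxidase, with 141.1, 122.8 and 204.2.

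**Figure D3:**
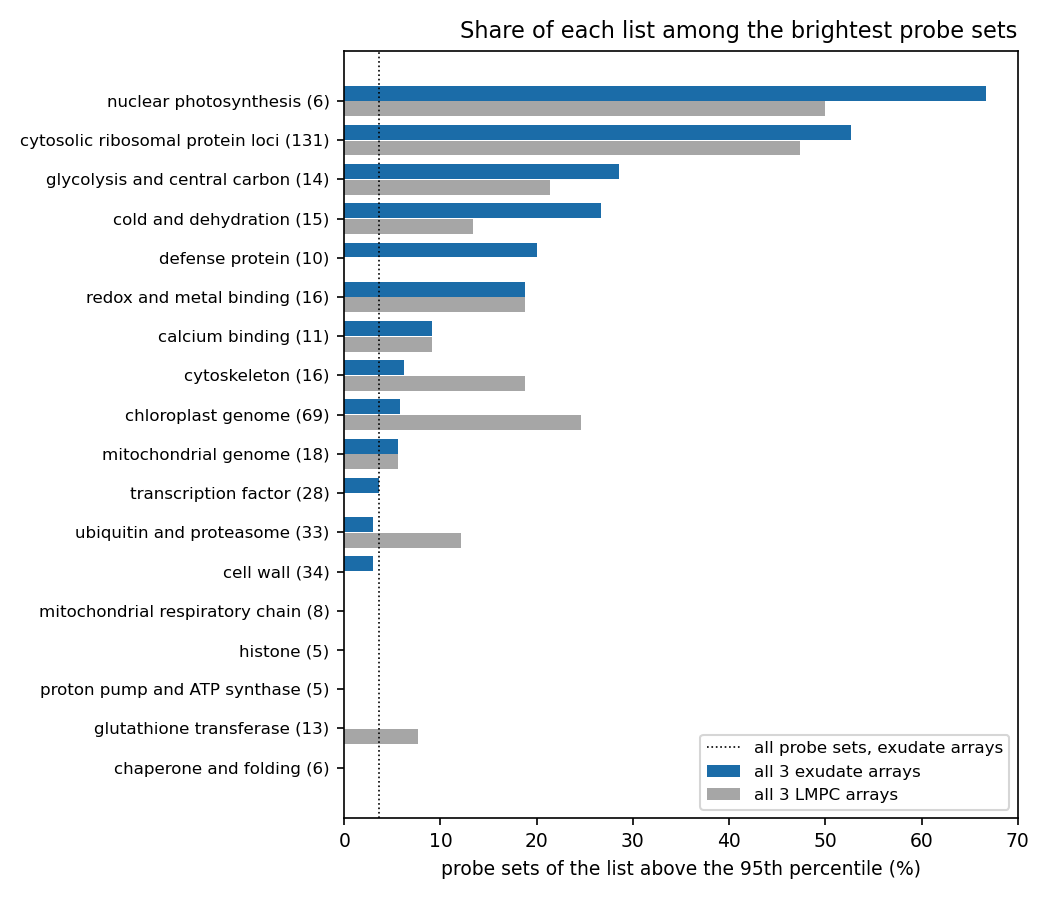
Percentage of the probe sets of each gene list that lay above the 95th percentile on all 3 exudate arrays (blue) and on all 3 LMPC arrays (grey), for lists with at least 5 probe sets (number in parentheses), with a dotted line at the 3.64% of all probe sets on exudate arrays. Ribosomal protein loci reach 52.7% in exudate and chloroplast genome transcripts 5.80% in exudate and 24.6% in LMPC phloem.

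Enzymes of central carbon metabolism held several high places. The cytosolic isocitrate dehydrogenase cICDH (AT1G65930), which makes NADPH, had a signal of 902.8, 772.1 and 1378.5 and ranked 69, 68 and 85. FDH (AT5G14780), formate dehydrogenase, had 770.1, 981.2 and 1626.8 and ranked 87, 45 and 57. GAPC2 (AT1G13440), the cytosolic glyceraldehyde-3-phosphate dehydrogenase of glycolysis, had 750.4, 675.9 and 1193.4 and ranked 91, 87 and 107. These 3 genes lay at rank 107 or better on every array. TPI (AT3G55440), the cytosolic triose phosphate isomerase, had 119.8, 337.7 and 532.4, and its rank ran from 865 on array 1 to 227 on array 2. The keyword list of this group had 4 members of 14 measured genes (28.6%, against 3.87%). PPDK (AT4G15530), pyruvate orthophosphate dikinase, entered just above the threshold with 118.3, 103.3 and 161.2. The aldehyde dehydrogenases ALDH7B4 and ALDH10A8 had means of 216 ± 82.5 and 198 ± 112, and SAMDC, which serves polyamine synthesis, had 232 ± 46.0.

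Redox proteins and electron carriers gave 7 members, led by PRXR1. CYTC-1 (AT1G22840), the mitochondrial cytochrome c, had a signal of 374.6, 311.1 and 775.9. GRXC2 (AT5G40370), a glutaredoxin, which reduces disulfides with glutathione, had 354.3, 320.3 and 889.7. Its relative GRXC1 (AT5G63030) had 107.7, 94.4 and 259.4, close to the threshold on arrays 1 and 2. Thioredoxin m2 (ATHM2, AT4G03520), a chloroplast disulfide reductase, had a mean of 216 ± 110. ACYB-2 (AT4G25570), a cytochrome b561, had 239 ± 55.8, and the monodehydroascorbate reductase gene ATMDAR2 (AT5G03630) had 144 ± 58.4. The keyword list of redox and metal-binding names had 3 members of 16 (18.8%, against 3.87%).

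Genes named for cold, drought or temperature gave 8 members, several of them bright and steady. AT1G54410 (HIRD11), a small dehydrin, which is a protein that binds metals and protects cells against drying, had a signal of 1841.5, 1168.7 and 2458.0 and ranked 14, 31 and 27. COR47 (AT1G20440), a dehydrin gene of the cold response, had 1151.9, 975.6 and 1470.3 and ranked 42, 46 and 72. DI19 (AT1G56280), a drought-induced zinc finger protein gene, had 553.1, 533.5 and 753.5. After each array was divided by its own 75th percentile, DI19 had the smallest spread of all named members. RD2 (AT2G21620), known as responsive to desiccation, had a mean of 765 ± 236, and TIL (AT5G58070), a temperature-induced lipocalin, had 499.6 ± 56.0. STZ (AT1G27730), a zinc finger repressor of stress responses, had 433 ± 114. SRC2 (AT1G09070) and DI21 (AT4G15910) had lower means of 315 ± 88.7 and 237 ± 149.5. By keywords, 4 of 15 genes of this group were members (26.7%, against 3.87%).

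Secreted defence and signalling peptides gave 5 members with uneven values. ECS1 (AT1G31580), a small cell wall protein gene, had a signal of 580.8, 514.8 and 1463.0. PDF1.2 (AT5G44420), a plant defensin under jasmonate control, had 257.8, 586.8 and 714.0, lowest on array 1. PDF1.2b (AT2G26020), a close paralog whose probes may also bind PDF1.2 transcripts, had 184.9, 315.9 and 543.3 and was also lowest on array 1. RALFL33 (AT4G15800) and RALFL34 (AT5G67070), peptides of the RALF family that raise extracellular pH, had 291 ± 108 and 216.5 ± 55.9. Defence names gave 2 members of 10 by keywords, both defensins (20%, against 3.87%).

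Protein turnover and sorting gave 8 members. Besides UBC28, the ubiquitin-like autophagy proteins ATG8F (AT4G16520) and APG8H (AT3G15580, also ATG8I), which coat autophagosomes, had a mean signal of 317 ± 142 and 345 ± 231. The aspartic proteinase gene APA1 (AT1G11910) had 538.1, 321.7 and 489.1. GAMMA-VPE (AT4G32940), a vacuolar processing enzyme, had 371 ± 100.6, and CYS1 (AT5G12140), a cystatin that inhibits cysteine proteases, had 143 ± 48.7. VPS2.1 (AT2G06530) and VPS46.2 (AT1G73030), subunits of the ESCRT machinery that buds membranes inward at endosomes, had 178 ± 81.7 and 146 ± 79.6. By keywords only UBC28 of 33 ubiquitin and proteasome genes was a member (3.03%, against 3.87%). That share is near the one of all genes with a name beyond a locus code.

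Of 6 members of the cytoskeleton, membranes and wall, AT1G53210 (AtNCL), a sodium and calcium exchanger gene, had the most uneven values, 274.0, 708.2 and 966.5. WLIM2b (AT3G55770), which bundles actin filaments, had a mean of 358 ± 130.5, and SPR1 (AT2G03680), a microtubule protein of directional growth, had 352 ± 188. The vacuolar proton pump subunit AT4G02620 had 334 ± 171 and TET8 (AT2G23810), a tetraspanin of extracellular vesicles, 314 ± 90.4. EXGT-A3 (AT2G01850), a xyloglucan endotransglucosylase of the wall, had 153.3, 116.7 and 242.2. Of 34 cell wall genes by keyword it was the only member (2.94%, against 3.87%).

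Genes grouped by name under nucleus and RNA gave 6 members, none of them among the best places. RBP45B (AT1G11650), an RNA-binding protein gene, had 231.8, 151.0 and 277.7 and ranked 428 on array 1. HTB4 (AT5G59910), a histone H2B gene, had a mean of 213 ± 77.8, NRPB12, a subunit shared by the RNA polymerases, 197 ± 68.5, and MAC3B, a splicing-associated protein, 158 ± 46.4. AT2G23070 (CKA4), a protein kinase catalytic subunit, had 225 ± 139. It was counted in this group by name only, and where in the cell its protein acts was not examined. AT5G61590 (DEWAX), a transcription factor that represses wax synthesis, had 180 ± 109. By keyword STZ was the member among 28 genes with transcription factor names (3.57%, against 3.87%), and the keywords did not reach DEWAX. Keyword lists without a member were glutathione transferases (13 genes), mitochondrial respiratory chain names (8 probe sets), chaperones (6 probe sets) and proton pumps and ATP synthase (5). So were core histone names (5), glucosinolate names (2), aquaporins (1) and jasmonate names (1). Such a list does not show that a function is absent, since the keywords missed members named above. These were HTB4, ATPC1, the vacuolar proton pump subunit AT4G02620, CYTC-1 and cox1. The small lists of calcium binding (1 of 11), cytoskeleton (1 of 16), proteases and inhibitors (1 of 2) and reference genes (1 of 2, GAPC2) had 1 member each. The other reference gene, PEX4 (AT5G25760), had a signal of 49.0, 3.9 and 6.7 in exudate. Its mean within-array percentile was 54.2 in exudate and 93.1 in LMPC phloem. Keywords for translation factors, lipid transfer proteins and glycine-rich proteins, and for ribosomal proteins by name, found no probe set.

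Among all 827 members the spread between the 3 arrays depended on the scale. After each array was divided by its 75th percentile, the median SD of log2 signal was 0.36, and 191 members (23.1%) differed by more than 2-fold between the highest and the lowest array. As deposited, the median SD was 0.56, and the highest signal was 2.09 times the lowest at the median. Over all probe sets the scaled median SD was 0.90, and 72.4% differed by more than 2-fold. A member had to pass the threshold on all 3 arrays, which by itself bounds its spread, so nothing is read from that gap. The median SD was 0.35 for ribosomal members and 0.38 for the other named members. After scaling, array 3 still gave the highest value for 595 members and array 2 the lowest for 547. Leaving out array 3 gave a median SD of 0.23 and leaving out array 2 gave 0.25, so both arrays carried much of the spread.

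AT3G22240, which has no name in the tables, stood alone in its spread. Its signal was 5012.8, 372.8 and 6834.5, and it was the brightest probe set of arrays 1 and 3 and ranked 208 on array 2. Its scaled values differed by 13.4-fold, against a median of 1.61-fold over the named members, and it was the 1 named member above 4-fold. The next widest were AT3G23550 (221.5, 219.9 and 974.9), AT4G23670 (239.1, 117.9 and 612.5) and TPI, with 3.24-, 3.79- and 3.24-fold. At the other end, DI19 differed by 1.04-fold, PRXR1 by 1.06-fold, AT2G30600 by 1.07-fold, and AT2G14910 and ACYB-2 by 1.08-fold each.

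**Figure D4:**
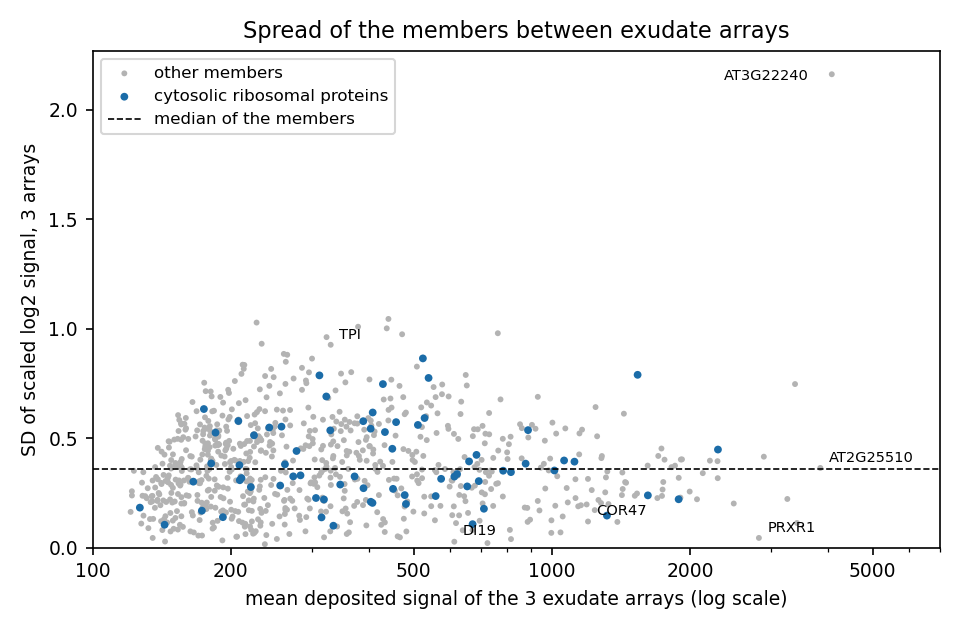
Standard deviation over the 3 exudate arrays of log2 signal, after division of each array by its 75th percentile, against the mean deposited signal (log scale) for the 827 members, with ribosomal protein genes in blue and the median of 0.36 dashed. AT3G22240 lies alone at 2.16, and PRXR1 and DI19 lie near 0.

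At the edge of the set the values were close on both sides. Just inside, AT1G68300 had its lowest within-array percentile at 95.01 and a signal of 94.0, 134.0 and 256.6, and AT1G21000 had 109.2, 93.6 and 160.1. Just outside, AT1G02160 reached 94.96 on array 2 with 145.0, 83.3 and 227.0, and AT5G64870 missed on arrays 1 and 3 with 93.0, 118.9 and 158.2. Genes on either side of the threshold are therefore not separated by more than the spread between arrays.

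The LMPC arrays, which the choice of members did not use, were set beside the exudate arrays by place within the array and without a test. Of the 827 members, 432 (52.2%) lay above the 95th percentile on all 3 LMPC arrays, as did 3.68% of all probe sets. These 432 were 51.6% of the 837 probe sets that met the same rule in LMPC phloem. The share was 76.8% for the 69 ribosomal members (53 genes) and 50% for the other 758. Of the 131 measured ribosomal genes, 62 met the rule in LMPC phloem (47.3%), against 69 in exudate. The median member stood at the 96.2 percentile of the LMPC arrays, and 35 members lay below the 50th percentile on all 3. The kits differed between the sample types, and the part of the kit in these places was not tested.

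Of the 354 members with 1 gene, 205 (57.9%) lay above the 95th percentile on all 3 LMPC arrays. By group the count was 7 of 9 for photosynthesis, 5 of 7 for redox, 4 of 6 for cytoskeleton, membrane and wall, and 5 of 8 for protein turnover. It was 4 of 8 for carbon metabolism, 4 of 8 for cold and drought and 2 of 4 for the chloroplast genome. For the group of nucleus and RNA it was 1 of 6, and for the secreted peptides 1 of 5. The groups are small, and differences between them were not tested. Of the members with 1 gene, the brightest on the LMPC arrays was psbM, with 9127, 5708 and 4650 on arrays 1, 2 and 3. After it came AT5G38980, with 5287, 4573 and 3018, and AT3G07230, with 3799, 3266 and 3719. In this order the exudate means were 653 ± 493, 985 ± 449 and 503 ± 242. Among the members with 1 gene lowest on the LMPC arrays, EXGT-A3 had 1.28, 8.81 and 1.13 there. AT4G16260 had 2.68, 2.20 and 8.71, and AT2G30930 had 3.75, 1.4 and 1.52. In exudate AT4G16260 had 550.1, 511.4 and 1094.2 and AT2G30930 had 210.5, 132.1 and 253.8. PDF1.2 had 2.86, 1.91 and 14.8 on the LMPC arrays, all below its lowest exudate signal of 257.8.

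**Figure D5:**
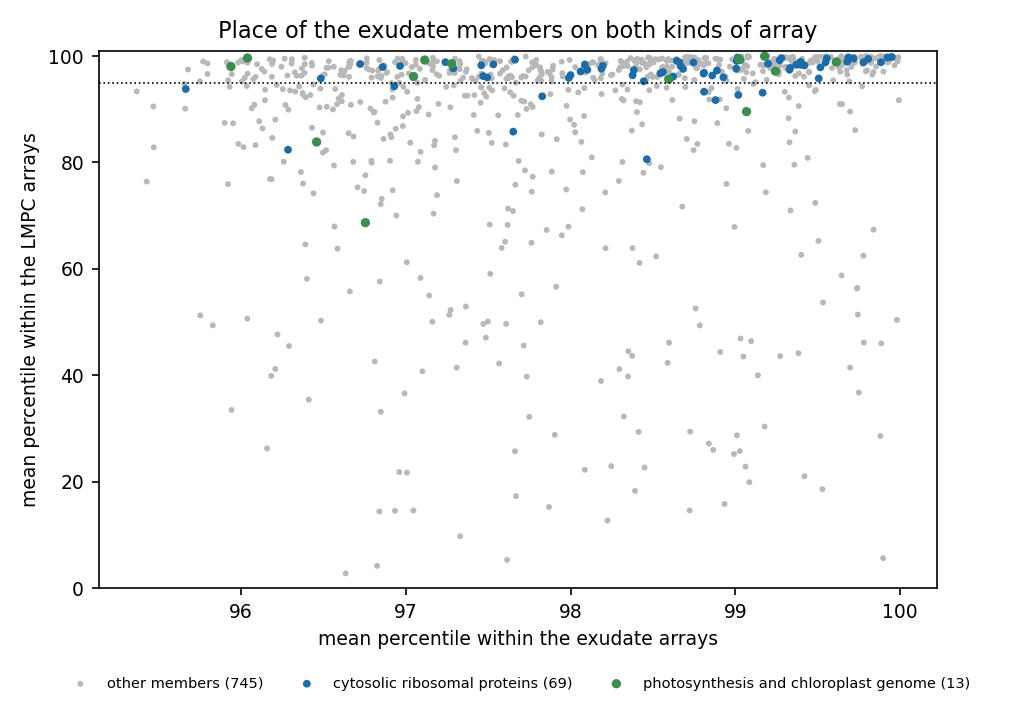
Mean percentile of each member within the 3 LMPC arrays against its mean percentile within the 3 exudate arrays, with the 69 cytosolic ribosomal protein genes in blue, the 13 photosynthesis and chloroplast genome genes in green and the other 745 members in grey, and a dotted line at the 95th percentile. Most members lie near the top of the LMPC arrays, and a scatter of others reaches below the 50th percentile.

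Control probe sets read the 3' and 5' ends of the same transcripts. On exudate arrays 1, 2 and 3 the 3' actin probe set had a signal of 478.1, 380.5 and 682.3 and its 5' partner 16.3, 30.4 and 9.3. The 5' value lay near the array median of 10.3 on array 3 and above the medians of 8.8 and 9.4 on arrays 1 and 2. On array 2 it also lay above the 75th percentile of 21.9. These signals are low, so no fold is given. A further actin pair had 512.1, 443.4 and 716.5 at the 3' end and 27.3, 49.3 and 42.9 at the 5' end. The GAPDH pairs differed from each other, with 194.7, 185.4 and 333.0 against 32.5, 11.1 and 9.6 in one, and 103.0, 68.9 and 118.5 against 48, 29 and 48 in the other. A ubiquitin pair had higher signals at both ends, 1479.9, 1068.2 and 1912.5 against 165.5, 171.3 and 232.7. Its 3' signal was 8.94, 6.24 and 8.22 times its 5' signal. A further ubiquitin pair had 1543.9, 1251.7 and 2480.3 against 222.7, 309.5 and 351.8. The 3' end was brighter in all of these pairs on every exudate array, by amounts that depended on the probe set. The 25S ribosomal RNA control had a signal of 1009.9, 944.7 and 2053.3. The part of RNA length in the ranks was not tested.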

How the data were processed

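Each array came as deposited intensity on a linear scale, with 1 value per probe set. MAS5 made these values, per the submitters' processing notes, and its version, scaling target and detection calls, like the build, were not given in the sources used here. The arrays showed no common scale. Of 22810 probe sets, 64 controls were left out. Sample titles set the groups, although the LMPC samples carry an extract protocol that speaks of exudate. Genes were named from the probe table where it gave 1 gene (13513 probe sets, 13436 of them matched to TAIR10.1). TAIR10.1 is the build of the gene table, and the build behind the deposited files is not known, so that table served for names only and no gene spans are reported. The tables hold no sequence.

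Ranks, percentiles, means and SDs were computed with Python 3.11.15, pandas 2.3.3 and numpy 2.4.6. No test was run between exudate and LMPC phloem, and no p-value is given. The selection was tested on simulated data. Planted probe sets were placed above every other signal there, so that test checks the code and not probe sets near the threshold. The number of arrays, 3 per group, limits the precision. Named genes were the 25 with the best places, the first 3 of each list, the fixed markers, the 5 widest and 5 narrowest spreads, 4 on each side of the threshold, and the 6 lowest and 3 highest on LMPC arrays. Other members named by role, ribosomal paralogs among them, were chosen after their values were seen. Members and lists were chosen with earlier results of these data known. Of 31 gene lists, matched by locus, genome or keyword in gene names, 27 had a probe set; keywords reach only the genes whose names carry them. Alternatives changed the percentile, the number of arrays required, the probe sets ranked, the scale and the arrays used.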

Additional observations from a re-analysis of the deposited data

How the results depend on the processing

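The number of members was 1562 at the 90th percentile, 361 at the 98th and 176 at the 99th, against 827. It stayed within 1.5 times of 827 when 2 of the 3 arrays were enough (1085), for a mean percentile above the 95th (1017), for plain probe sets only (777) and with controls ranked too (804). Leaving out 1 exudate array gave 902 to 926, and 389 to 396 named genes against 354. At the 98th percentile the members, 361 of all 22746 probe sets, included 34.4% of the ribosomal genes. They also included 2.90% of the chloroplast genome probe sets and 6.25% of the redox list. A higher threshold admits fewer probe sets, so these shares are not to be set against those of all probe sets at the 95th percentile. The share of members bright on the LMPC arrays was 42.4% at the 98th percentile and 49.6% to 55.5% when 1 array of either group was left out. The median spread was 0.56 as deposited, 0.48 after division by the array median, 0.26 after quantile normalization and 0.23 to 0.39 without 1 exudate array. Ordered by mean signal, 22 of the 25 first genes were the same. No paired analysis was possible because every result is a description by place within arrays and none comes from a test. Probe binding, unnamed probe sets and 3 arrays of unlike brightness limit these ranks.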

Other observations

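A few members were bright on 1 LMPC array alone. AT2G25510, ranked 2 to 4 in exudate, had a signal of 6266 on LMPC array 1 and of 66.4 and 42.8 on arrays 2 and 3. AT1G09310 had 185, 3.26 and 4.04 there, AT5G22580 had 103, 8.47 and 8.41, and AT3G22240 had 82.6, 4.44 and 1.85. After scaling each array by its 75th percentile, 15 members (1.81%) stood over 4-fold above both other LMPC arrays on array 1, 3 on array 2 and 1 on array 3. Over all probe sets the shares were 0.40%, 0.28% and 0.30%. The share of members bright on the LMPC arrays was 55.5% without LMPC array 1, 54.2% without array 2 and 53.6% without array 3. With all 3 it was 52.2%. Leaving out an LMPC array drops a requirement, so the share cannot fall, and nothing is read from the rise.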
